A study of Vitis vinifera with 165 samples.

Results

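In the skin and flesh of Pinot noir grape berries, 150 gene models changed little, on the average of 3 seasons, up to the window around the start of ripening and were steeply lower 3 weeks later. Most of them were already lower on the day labelled veraison than on the sampled day before it. They were chosen from 29971 gene models, of which 20460 had 1 RPKM or more in 3 or more libraries. RPKM divides the reads of a gene model by its length and by the library's mapped reads, and levels were taken as log2(RPKM + 1). In each of 3 seasons the first step was the mean of days -9 to 0 minus the mean of the days up to -14, where day 0 is veraison. The second step was day 21 minus the mean of days -9 to 0. Both steps were averaged over thinning levels and seasons, and the members were the 150 gene models with the most negative second step among the 14289 whose first step was smaller than 0.5 in size. These values chose the members, so both steps are described here without a test.

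Veraison is the point at which a grape berry stops being hard and green, softens, starts to fill with sugar and, in red varieties such as Pinot noir, turns colour. Before it, the berry grows by division and expansion of cells, photosynthesises and stores organic acids and tannins. After it, the programme of gene expression of the green berry gives way to that of the ripening berry, and many transcripts abundant in the green fruit decline. Gene expression in a pooled berry sample is a relative measure. A lower value may stand for fewer cells of a type or for less RNA per cell, and these cannot be told apart here.

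The study asked how strongly removing clusters alters berry ripening. Berry pericarp of Vitis vinifera cv Pinot noir (clone FPS 23 on Freedom rootstock, grown near Modesto, California) came from vines thinned after fruit set by 75% (severe, 1 cluster on every other shoot) or by 50% (moderate, 1 cluster per shoot). The 75% vines were sampled 8 times in 2012 (days -28, -18, -9, 0, 11, 21, 32 and 34), 9 times in 2013 (days -14, -7, 0, 7, 14, 21, 28, 35 and 37) and 11 times in 2014 (days -14, -6, 0, 7, 14, 21, 28, 35, 38, 42 and 49). The 50% vines were sampled on the same days, except that 2012 ended on day 42 in place of day 34 and that day 38 of 2014 was not sampled. Every season, day and level had 3 libraries, 165 in all, and an unthinned control described in the labels was not analysed here. All groups are thus thinned vines of 1 clone in 1 vineyard. Each sample pooled 60 berries from 6 clusters of blocks of 8 vines, seeds were removed during grinding, and a replicate number is not tied to a row or block. P-values therefore measure the spread between these pooled samples, which may be partly technical.

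The sum of RPKM lay between 876732 and 1405120 per library, with a median of 981285. Read counts were not used here and the absolute depth is unknown. The spacing of the lowest values gave a relative depth for 155 of the 165 libraries, and the deepest held 3.48 times as many reads as the shallowest. None of the 29971 gene IDs matched the reference table and the expression file does not pair IDs with names. Members are therefore given by ID and without a function, and no marker of pericarp or seed could be looked up to check the tissue. Library 2 of 50% thinning on day 28 of 2014 stood apart: its sugar was 18.33 g per 100 ml, the lowest of that day, whose median was 22.3 g per 100 ml. With libraries 1 and 2 of 50% thinning on day -18 of 2012 and library 2 of 75% thinning on day 0 of 2012, it makes up the 4 libraries that stand apart below.

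The members were moderately to highly expressed before ripening. Their median RPKM over libraries had a midpoint among members of 18.7 on the days up to -14 and 19.0 on days -9 to 0. It was 6.95 on days 7 to 14, 2.41 on day 21 and 1.06 after day 21. Only 1 member had a median below 1 RPKM on days -9 to 0, against 52 on day 21 and 73 later. The levels spread widely around veraison: 49 members were below 10 RPKM, and 20 were at or above 100 RPKM. No member was listed at 0 in every library of any of these stages.

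**Figure D1:**
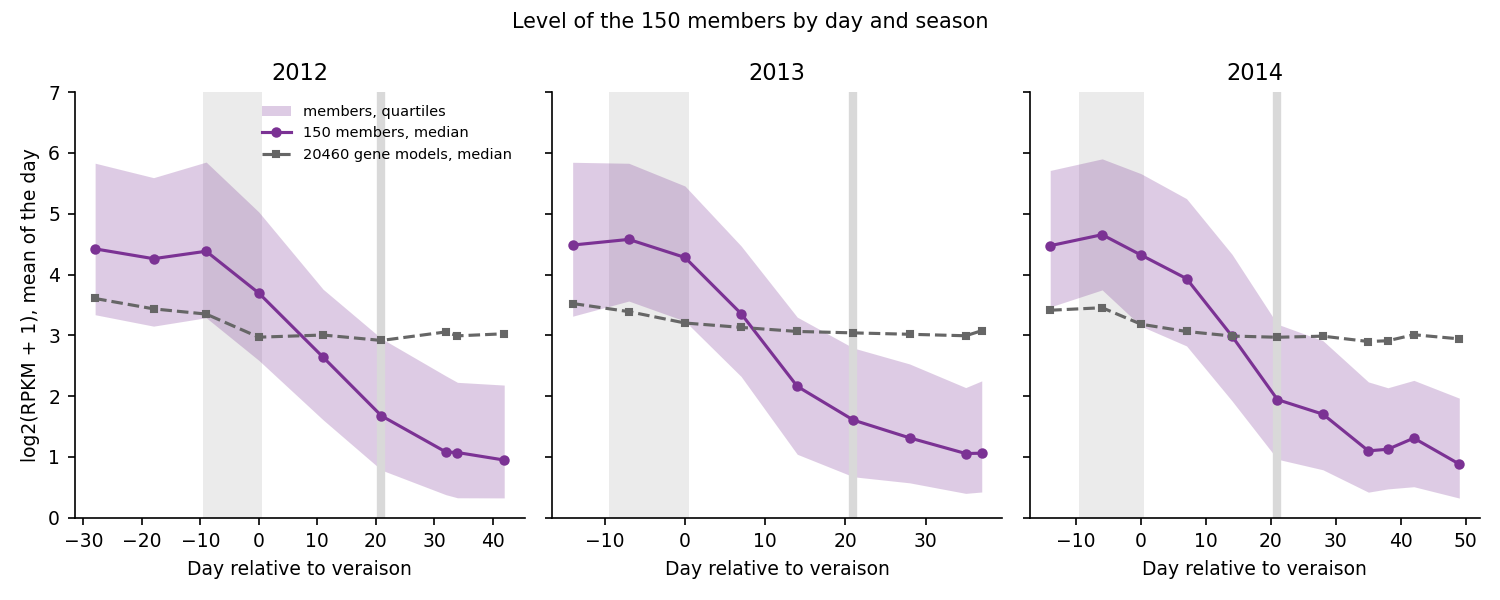
Level of the 150 members by day relative to veraison in 2012, 2013 and 2014, as log2(RPKM + 1) averaged over the libraries of a day. Circles are the median member, the band runs from the lower to the upper quartile of the members, squares are the median of all 20460 gene models tested, and the grey areas are days -9 to 0 and day 21, which the choice of members used. The members' median lies above that of all gene models before veraison and below it from day 21 on in each season.

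The second step had a median of -2.27 among members, from -6.39 to -1.87, beside a median of -0.18 over all gene models. It was below -1 in all 3 seasons in 145 members, and above 0 in some season in 4. Of all gene models, 9.08%, 13.0% and 14.8% were below -1 in 2012, 2013 and 2014. On linear RPKM, 143 members had a day 21 median at least 4-fold below that of days -9 to 0, and in 52 it was at least 10-fold below. Every library of day 21 lay below every library of days -9 to 0 in 121 members, as it did in 7.94% of all gene models. Just inside the limit, VIT_04s0023g03610 had a second step of -1.8745, and just outside it VIT_05s0102g00660 had -1.8739. The limit therefore separates nearly equal values.

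The label of the set, genes falling only after veraison, held for the average of seasons but less well for single seasons and days. The first step stayed within 0.5 in all 3 seasons for 51 members, in 2 seasons for 64, in 1 season for 26 and in no season for 9. In 2012 its median was -0.32, beside -0.25 over all gene models, and 54 members had already dropped by at least 0.5. The first step of 2012 was within 0.5 in 86 of the 150 members and in 56.3% of all gene models, which is a similar share. In 2013 and 2014 the members' medians were -0.03 and -0.05, beside -0.15 and -0.06 over all gene models. Day 0 also lay below the first day of the same window. The median member was 0.65 log2 units lower on day 0 than on day -9 of 2012, 0.40 lower than on day -7 of 2013 and 0.35 lower than on day -6 of 2014, while the medians over all gene models were 0.26, 0.11 and 0.16 lower. Of the 150 members, 132, 123 and 113 were lower on day 0 in the 3 seasons. The approach to veraison was thus flat only as an average over days and seasons. Sugar on day 0 was 10.23 to 13.43 g per 100 ml in 2012, 9.25 to 11.12 in 2013 and only 1.40 to 2.15 in 2014, so the labelled day did not mark the same sugar content in each season.

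A season that played no part in the choice showed the same second step. When the members were chosen again without 2012, 2013 or 2014, the 150 gene models so chosen had a median second step in the left-out season of -2.07, -2.42 and -2.11. It was below -1 in 142, 149 and 141 of them, against 9.08%, 13.0% and 14.8% of all gene models. The flat first step carried over less well, since it was within 0.5 in 63, 94 and 95 of the 150, against 56.3%, 67.9% and 75.7% of all gene models. The steep fall thus recurred in seasons not used to choose it, and the flat approach to veraison was no commoner among them than among all gene models in any left-out season. Leaving out those seasons kept 107, 115 and 102 of the 150 members.

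1 member dominated the set by abundance. VIT_19s0014g02740 had a median of 151060 RPKM on the days up to -14 (80982 to 201704 over 24 libraries), 110447 on days -9 to 0 (60242 to 173868, 36 libraries), 40375 on days 7 to 14 (21417 to 88050, 30 libraries), 22629 on day 21 (13157 to 31021, 18 libraries) and 9290 after day 21 (3735 to 24604, 57 libraries). The ranges of day 21 and of days -9 to 0 did not overlap. This 1 gene model took a median of 15.7% of all RPKM in a library on the days up to -14, 11.1% on days -9 to 0, 3.96% on days 7 to 14, 2.27% on day 21 and 0.951% later. The other 149 members together took 1.79%, 1.62%, 0.595%, 0.237% and 0.125% in the same stages.

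RPKM is scaled to the total of a library, so a share of this size bears on the values of every other gene model. Rescaling each library to its total without VIT_19s0014g02740 shifted log2 values by a median of 0.09 on days -9 to 0 and by -0.07 on day 21, and 122 of the 150 members were chosen again. The members' median second step of -2.27 is larger than either shift. The ID next to it by number, VIT_19s0014g02730, had medians of 5285, 3475, 1259, 607 and 288 RPKM in the 5 stages. Over the 165 libraries both moved together (r = 0.994 on the log2 scale, and 0.852 for deviations from the group means). Both IDs are numbered 10 apart, and how the authors' counting divided reads between near-identical copies is not given in the sources used here, so that their separate levels are uncertain. Among the 150 members, 13 lay in 7 such pairs of adjacent IDs, and members were found under all 20 ID prefixes, 2 to 14 under each.

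The steepest member, VIT_04s0008g05640, had median RPKM of 155, 127, 3.23, 0.299 and 0.0834 in the 5 stages and was listed at 0 in 26 of the 57 libraries after day 21. Its ranges on day 21 (0.0981 to 0.987) and on days -9 to 0 (14.3 to 266) were far apart, and on the log2 scale its second step was -6.39. Next came VIT_12s0035g00880, whose medians were 34.2, 46.3, 6.43, 0.358 and 0.152 RPKM. VIT_04s0008g05010 joined abundance with a steep fall, at 2206, 2228, 1041, 221 and 50.4 RPKM.

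**Figure D2:**
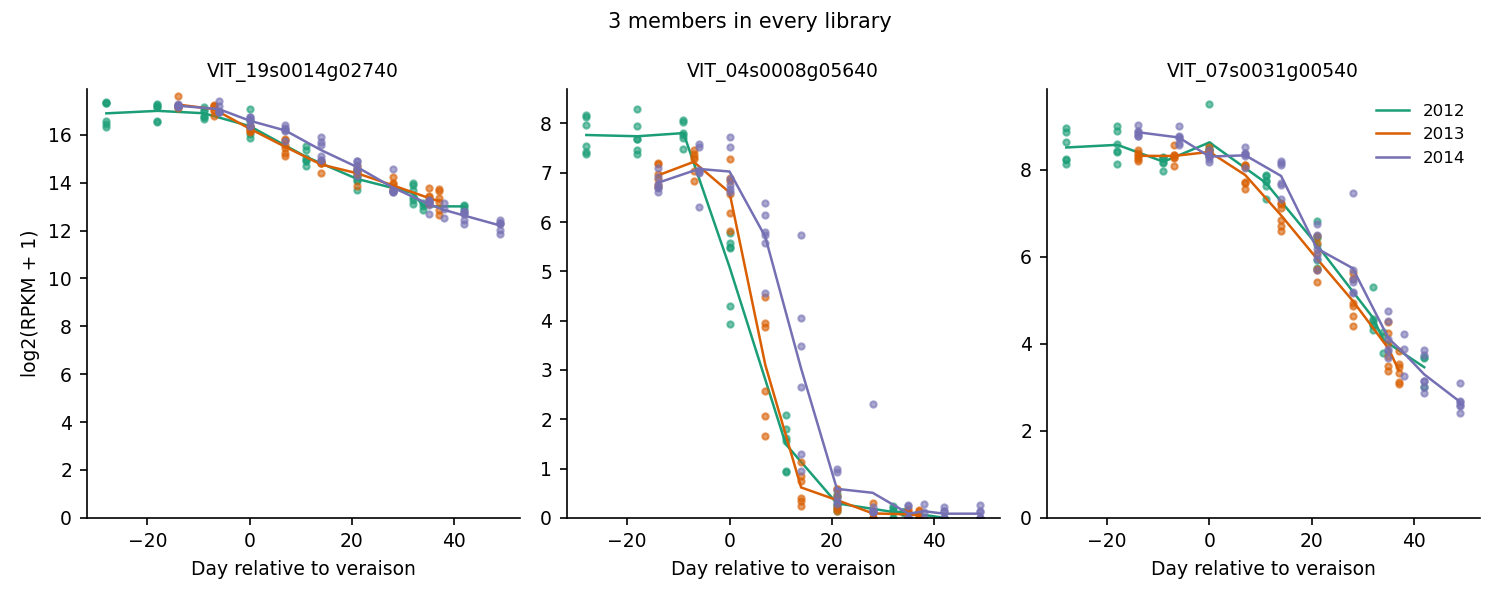
log2(RPKM + 1) of the most abundant member, of the steepest member and of the member with the smallest adjusted p for the late falls, against day relative to veraison, in every library (points) with the mean of each day (lines) for 2012, 2013 and 2014. VIT_19s0014g02740 declined steadily to a median of 9290 RPKM after day 21, VIT_04s0008g05640 was below 1 RPKM in every library of day 21, and VIT_07s0031g00540 kept falling through harvest.

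Days 7, 11 and 14 and all days after 21 were not used to choose the members, so changes between them could be tested, although the days before day 21 lie between windows whose difference the choice fixed. limma was fitted to all 20460 gene models, with Benjamini-Hochberg adjustment over all of them. A change in time or between seasons was called at an adjusted p below 0.05 and a log2 change of at least 1. Thinning differences were called on the adjusted p alone.

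In the second week after veraison 65 of the 150 members fell (43.3%), against 1.47% of all gene models. The median change of day 14 minus day 7 was -0.95 among members and -0.03 over all gene models, with 148 members lower on day 14. Without the limit on size, 137 members passed, beside 5423 of the 20460 gene models. The 6 libraries of day 14 lay wholly below those of day 7 in both 2013 and 2014 in 35 members, against 2.44% of all gene models. Within single seasons this held in 117 members in 2013 and in 40 in 2014. No share over all gene models is available for 1 season, and the 2.44% covers both seasons together.

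VIT_06s0004g01750 had 0.274, 1.29 and 3.39 RPKM (lowest, median and highest of 6 libraries) on day 14 of 2013, against 9.20, 17.8 and 28.6 on day 7. In 2014 it had 1.52, 4.01 and 13.9 RPKM on day 14, against 18.5, 29.0 and 31.3 on day 7. The days did not overlap in either season, and the fall was -2.59 ± 0.15 (log2, SE; limma, adjusted p = 9.48e-29). VIT_12s0035g00880 had 0.332, 0.616 and 1.14 RPKM on day 14 of 2013, against 6.71, 17.5 and 31.0 on day 7. In 2014 it had 0.762, 5.77 and 28.3 RPKM on day 14, against 20.0, 40.8 and 53.4 on day 7. The 2014 days overlapped in this member, since the highest library of day 14 (replicate 2 of 50% thinning) exceeded the lowest of day 7, and the overall fall was -2.92 ± 0.19 (limma, adjusted p = 6.48e-27).

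**Figure D3:**
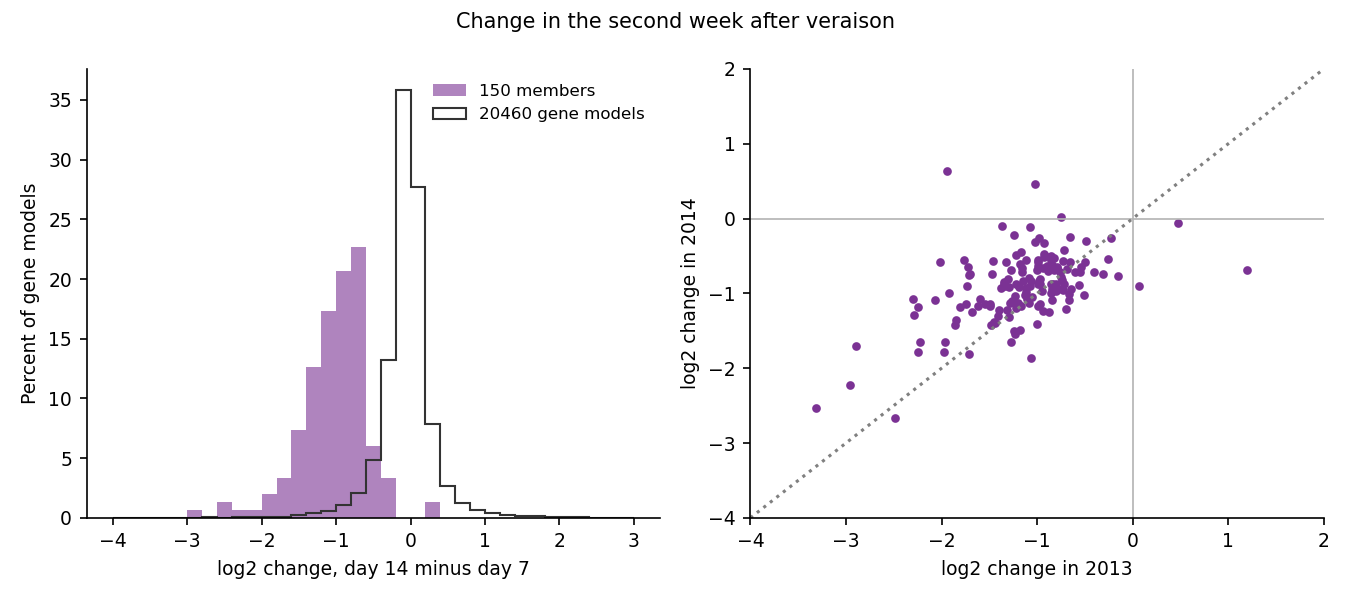
Left, distribution of the log2 change of day 14 minus day 7, averaged over 2013 and 2014, for the 150 members (filled) and all 20460 gene models (outline), in percent of each. Right, the change of each member in 2014 against that in 2013, with the dotted line at equal change: the members' median was -1.08 in 2013 and -0.88 in 2014.

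The pace differed between seasons. Between day 7 and day 14 the fall was less steep in 2014 than in 2013 in 6 members and differed the other way in 1, against 0.616% and 0.112% of all gene models (limma test of the difference). By day 7 of 2013 the median member had gone 44.0% of the way from the mean of days -9 to 0 to day 21, and 84.8% by day 14. In 2014 these shares were 24.5% on day 7 and 61.9% on day 14, and on day 11 of 2012 the share was 61.7%. Median sugar was 12.0 g per 100 ml on day 7 and 16.9 on day 14 of 2014, and 14.9 and 19.2 on the same days of 2013. Day 11 of 2012 had more sugar than day 14 of 2014, 17.9 g per 100 ml, at nearly the same share.

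Over days 7 and 14, 29 members were higher in 2014 than in 2013 at the limit, against 0.899% of all gene models. None was called lower, against 2.74% of all gene models, with 3 lower at an adjusted p below 0.05 in limma but short of the limit on size. On day 7 alone 14 members were called higher and 1 lower, and on day 14 alone 43 and 1. Of all gene models, 0.616% and 3.02% were called higher and lower on day 7, and 1.33% and 2.65% on day 14. VIT_19s0177g00090, described below, and the members whose deviations from group means correlated with its own above r = 0.5 held 9 of the 29. Within groups, 7 of the 29 had an SD of log2(RPKM + 1) above 1, and 19 had neither trait. The median difference of 2014 minus 2013 was 0.64 among members, with 145 of 150 higher in 2014, and 0.00 over all gene models. VIT_04s0008g05640 had 22.7, 53.3 and 82.1 RPKM (lowest, median and highest of 6) on day 7 of 2014, against 2.15, 9.31 and 21.4 on day 7 of 2013. Day 14 gave 0.931, 7.74 and 52.2 RPKM in 2014, against 0.188, 0.498 and 1.18 in 2013. Its seasons were apart on day 7 and overlapped on day 14, and the difference was 2.51 ± 0.20 (limma, adjusted p = 6.42e-21).

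VIT_05s0094g01590 was higher in 2014 without overlap on either day. It had 36.4, 52.5 and 57.1 RPKM on day 7 of 2014, against 16.4, 20.4 and 31.2 in 2013, and 24.7, 30.9 and 53.0 RPKM on day 14 of 2014, against 6.06, 7.71 and 10.6 in 2013. The difference was 1.52 ± 0.13 (limma, adjusted p = 4.55e-20). With the sugar content of each library as an added term, chosen after seeing the data, 16 members were called higher in 2014. Other properties that differed between the years cannot be told apart from the season.

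The season difference was smaller later on. After day 21, 73 members had a median below 1 RPKM, where the added 1 compresses differences. On days 28 and 35 the median of 2014 minus 2013 was 0.18 among members, and only VIT_12s0035g01900 was called, against 0.0391% of all gene models called higher. It had 51.6, 65.9 and 133 RPKM on day 28 of 2014, against 30.3, 32.3 and 47.3 in 2013, and 34.2, 45.5 and 54.9 RPKM on day 35 of 2014, against 16.7, 20.2 and 22.6 in 2013. The seasons did not overlap on either day, and the difference was 1.05 ± 0.12 (limma, adjusted p = 2.51e-13). When the library that stood apart was left out, no member was called by limma at the limit on size, with 54 at an unadjusted p below 0.05. Without the 4 libraries that stand apart the difference of VIT_12s0035g01900 was 0.96 (limma, adjusted p = 5.25e-15), just under the limit of 1. Without replicate 2 it was 0.89 (limma, adjusted p = 9.60e-07), and another member was called instead, lower in 2014. Without the limit on size 48 members were higher in 2014 and 3 lower, beside 3153 and 3946 of the 20460 gene models. With a pseudocount of 0.1 the members' median was 0.29, and 4 were called higher at the limit, beside 48 of the 20460 gene models.

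The fall continued beyond day 21. In 2012, 98 members were called lower on day 32 than on day 11, against 5.36% of all gene models, with medians of -1.28 among members and 0.07 over all. VIT_15s0021g00940 had 21.5, 23.7 and 27.3 RPKM (lowest, median and highest of 6) on day 32, against 135, 176 and 210 on day 11. That is a change of -2.78 ± 0.12 (limma, adjusted p = 3.54e-39), with no overlap. VIT_07s0031g00540 had 18.8, 21.3 and 38.5 RPKM on day 32, against 160, 213 and 235 on day 11, a change of -3.10 ± 0.17 (limma, adjusted p = 2.48e-32). This interval spans day 21, so it holds a stretch of the fall the choice was made on.

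Changes wholly after day 21 were called in fewer members. For day 35 minus day 28, averaged over both seasons with these days, only 5 members were called lower, against 0.381% of all gene models, but 143 of 150 had a negative change and the median was -0.35. For day 49 minus day 28 of 2014, 40 members were called lower, against 2.94% of all gene models, with a median of -0.66. Leaving out the single library that stood apart reduced the count to 26. With a pseudocount of 0.1 in place of 1, 22 members were called for day 35 minus day 28 and 81 for day 49 minus day 28. Both intervals share the libraries of day 28 of 2014. The change of day 35 minus day 28 was lower in 2014 than in 2013 in 1 member and higher in 1, against 0.142% and 0.733% of all gene models.

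VIT_07s0031g00540 was first by adjusted p in both. On day 35 of 2013 it had 9.35, 13.6 and 21.6 RPKM, against 20.1, 28.7 and 48.2 on day 28. In 2014 day 49 gave 4.32, 5.17 and 7.53 RPKM, against 34.9, 42.6 and 176 on day 28. The highest of these is the library that stood apart, and the other 5 lay at or below 50.8 RPKM. Its change was -1.35 ± 0.12 for day 35 minus day 28 (limma, adjusted p = 9.10e-17) and -3.07 ± 0.17 for day 49 minus day 28 of 2014 (limma, adjusted p = 1.78e-31). VIT_14s0068g00510 followed with 0.944, 1.97 and 2.75 RPKM on day 49 of 2014, against 17.1, 19.9 and 41.5 on day 28, a change of -3.02 ± 0.20 (limma, adjusted p = 1.69e-26).

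Gene models that fell as steeply but were not flat before veraison were called in smaller shares over the intervals below, but not in each season. There were 498 of them, 447 with a first step of -0.5 or lower and 51 of 0.5 or higher. On day 14 minus day 7, 43.3% of the members and 39.6% of these 498 were called lower, with medians of -0.95 and -0.89. In 2013 alone the shares were 52% and 41.6%, and in 2014 alone they were 33.3% and 39%. On day 32 minus day 11 of 2012 the shares were 65.3% and 45.0%, and on day 49 minus day 28 of 2014 they were 26.7% and 16.5%. On day 35 minus day 28 they were 3.33% and 2.41%, and in 2014 alone 8% and 8.84%. The difference between both sets was not tested.

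Thinning differences were small beside those of ripening and were most frequent on days 7 to 14. There, 15 members (10%) were lower and 1 was higher at 75% than at 50% thinning, against 0.909% and 0.469% of all gene models. Of the 498 gene models as steep but not flat before veraison, 15.7% were called lower and 0% higher, with a median of -0.23. The difference between both sets was not tested. The median difference of 75% minus 50% was -0.21 among members and -0.02 over all gene models, and 136 of 150 were lower at 75%. Sugar averaged 16.9 g per 100 ml at 75% and 15.8 at 50% thinning over the same days and weights. With sugar as an added term, chosen after seeing the data, 1 member was called lower. Calls over all gene models fell likewise, from 186 lower and 96 higher to 7 lower and 14 higher. Sugar itself differed between the thinning levels, and its part in the members' difference was not tested.

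The difference rested on single days. Without day 14 of 2014 no member was called by limma, with 31 at an unadjusted p below 0.05. Without day 11 of 2012 there were 2, both higher, without day 7 of 2013 there were 6, and without day 7 of 2014 there were 52. The median member differed by -0.57 on day 14 of 2014, when sugar was 17.4 g per 100 ml at 75% and 15.7 at 50% thinning. It differed by -0.32 on day 7 of 2013 (15.2 and 14.1 g per 100 ml) and by -0.23 on day 11 of 2012 (18.6 and 17.2). On day 14 of 2013, when sugar was 19.6 at 75% and 18.2 at 50% thinning, it was 0.03 higher at 75%. On day 7 of 2014, when sugar was 12.1 at 75% and 12.2 at 50%, it was 0.06 higher. The part of sugar in these single days was not tested. Without replicate 1, 2 or 3, the members called numbered 4, 7 and 9, all of them lower at 75% except 3 of the 7. Without the 4 libraries that stand apart, 40 were called lower and 2 higher.

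VIT_11s0016g02430 had 3.60, 1.68 and 2.23 RPKM at 75% on day 11 of 2012, against 5.00, 8.37 and 4.37 at 50%. On day 14 of 2014 it had 6.54, 3.55 and 2.84 RPKM at 75%, against 6.98, 11.6 and 8.74 at 50%. The levels were apart on both days, it was lower at 75% on 4 of the 5 days, and the difference was -0.63 ± 0.12 (limma, adjusted p = 0.000614). Its call was lost without replicate 2 (adjusted p = 0.0588) and with sugar added (0.0563). VIT_07s0005g01210 had 1.03, 0.439 and 0.421 RPKM at 75% on day 14 of 2014, against 3.03, 2.53 and 1.81 at 50%. It was lower at 75% on 3 of the 5 days, by -0.53 ± 0.10 overall (limma, adjusted p = 0.000614), at values near 1 RPKM where the added 1 compresses differences. This call was lost without replicate 1 (adjusted p = 0.0558).

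The member called higher at 75% on days 7 to 14 was VIT_00s0253g00080, at 1.51 ± 0.39 (limma, adjusted p = 0.0240). The call was lost without replicate 1 (adjusted p = 0.257), without replicate 3 (0.101) and with sugar added (0.0675). On day 7 of 2014 it had 144, 171 and 157 RPKM at 75%, against 5.16, 71.4 and 15.0 at 50%. On day 11 of 2012 its libraries held 1.79, 25.6 and 1.77 RPKM at 75%, against 5.16, 7.57 and 1.31 at 50%, which overlap. Replicates of 1 group thus differed by more than 10-fold in places.

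**Figure D4:**
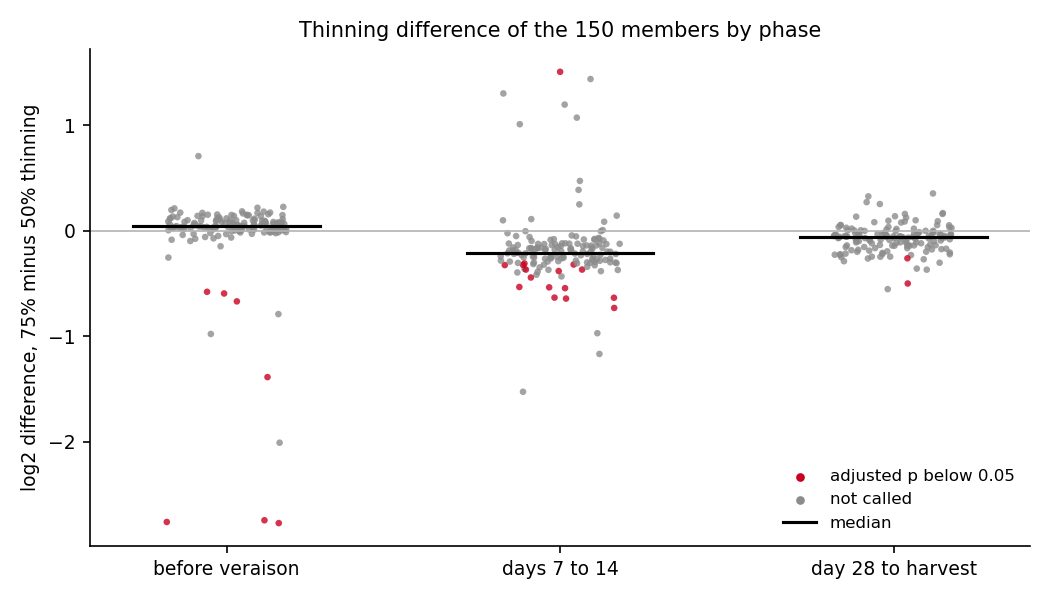
log2 difference of 75% minus 50% thinning for each of the 150 members (points, spread sideways for legibility) before veraison, on days 7 to 14 and from day 28 to harvest, with the median as a line and members at an adjusted p below 0.05 in red. The medians are 0.05, -0.21 and -0.06, and the 7 red points before veraison include 4 members whose SD between replicates exceeded 1.

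From day 28 to harvest 2 members were called lower at 75%, against 1.11% of all gene models, a share close to the 1.33% of members. VIT_07s0031g00540 had 4.32, 11.9 and 43.8 RPKM (lowest, median and highest of 24) at 75%, against 5.04, 19.8 and 176 at 50%. Its levels overlapped over these days but it was lower at 75% on all 8 of them, by -0.50 ± 0.10 (limma, adjusted p = 0.00222), a call lost without replicate 1 (adjusted p = 0.0892). VIT_17s0000g07850 was lower at 75% on 7 of 8 days, with a median of 21.6 RPKM at 75% and 24.4 at 50% and a difference of -0.26 ± 0.07 (limma, adjusted p = 0.0322). That call was lost whichever replicate was left out (adjusted p = 0.256, 0.301 and 0.112) and with sugar added (0.238). Over all 26 matched days 18 members were called lower, against 2.21% of all gene models, with a median difference of -0.08. Without replicate 1, 2 or 3, the members called lower numbered 1, 7 and 1, and without the 4 libraries that stand apart 35. VIT_03s0038g01050 and VIT_07s0031g03220 led these calls at -0.18 ± 0.04 and -0.19 ± 0.04 (limma, adjusted p = 0.00186 and 0.00400), lower at 75% on 18 and 19 of the 26 days. Without replicate 3 VIT_03s0038g01050 was no longer called (adjusted p = 0.0522), nor was VIT_07s0031g03220 without replicate 1 (0.104) or 2 (0.0737).

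The thinning difference was also compared between phases. On days 7 to 14 against before veraison it was lower in 24 members (16%) and higher in 8, against 1.86% and 1.94% of all gene models. Of the 498 gene models as steep but not flat before veraison, 24.7% were lower and 0.402% higher. Between day 28 and harvest the thinning difference was lower in 1 member than before veraison and higher in 1 than on days 7 to 14, against 0.684% and 0.0147% of all gene models. In members, 1 of 150 is 0.667%, close to the first of these shares.

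Before veraison 7 members were called lower at 75%, against 1.52% of all gene models, while the median member was 0.05 higher. Of these 7, 4 had an SD between replicates above 1, as in the following pair of members. VIT_07s0005g03420 had 1.48, 2.76 and 4.86 RPKM at 75% on day -14 of 2013, against 1949, 160 and 3448 at 50%. On day -7 of 2013 it had 0.321, 118 and 0.616 RPKM at 75%, against 1323, 5.26 and 688 at 50%. Libraries of 1 group thus differed by more than 100-fold, and its overall difference was -2.74 ± 0.61 (limma, adjusted p = 0.00236). VIT_07s0005g03410, numbered 10 below it and correlated with it at r = 0.995 over 165 libraries, gave -2.76 ± 0.56 (limma, adjusted p = 0.000529). Neither was called without replicate 1 (adjusted p = 0.514 for VIT_07s0005g03420 and 0.364 for VIT_07s0005g03410) or without replicate 3 (0.101 and 0.0596). Without day -14 of 2013 no member was called before veraison by limma, with 18 at an unadjusted p below 0.05.

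The spread between replicates was not used to choose the members. Within groups the SD of log2(RPKM + 1) had a median of 0.28 among members and 0.18 over all gene models. It exceeded 1 in 9 members (6%) and in 0.777% of all gene models. The largest, 2.08, was that of VIT_19s0177g00090, followed by VIT_07s0005g03420 at 1.98. VIT_19s0177g00090 had 1434, 8354 and 1748 RPKM at 75% on day -6 of 2014, against 6403, 5056 and 2964 at 50%. On day -14 of 2013 it had 2.53, 8.05 and 11.6 RPKM at 75%, against 2989, 267 and 4838 at 50%. On day -9 of 2012 it was listed at 0 in 5 of 6 libraries. Its highest library of 2012 lay far below its highest of 2013 and of 2014, and its first step was outside 0.5 in every single season. Its second step was 0.73 in 2012, against -5.19 in 2013 and -7.39 in 2014, so it did not fall in 2012. The 2012 second steps of VIT_07s0005g03420 and VIT_07s0005g03410 were likewise above 0, at 0.13 and 0.09.

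**Figure D5:**
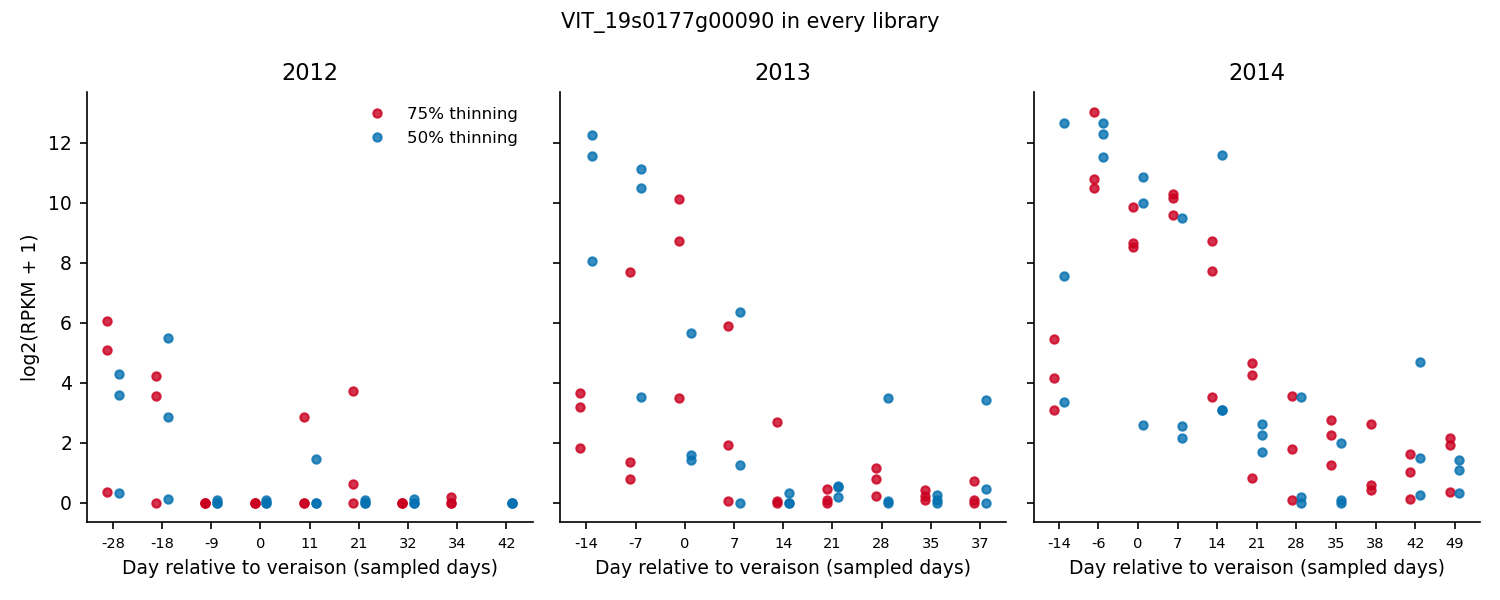
log2(RPKM + 1) of VIT_19s0177g00090 in every library, by sampled day and season, with 75% thinning left and 50% thinning right of each day. On day -14 of 2013 the libraries run from 2.53 RPKM to 4838 RPKM, and on day 0 of 2012 the highest of 6 is 0.0624 RPKM.

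These members swung together. Deviations from the group means of VIT_19s0177g00090 correlated with those of VIT_07s0005g03420 and VIT_07s0005g03410 at r = 0.94 and 0.95 over the 165 libraries. In all, 9 other members of the 150 and 206 of the 20460 gene models tested had an r above 0.5 with it, and the median over members was 0.11. The correlations share libraries and groups and are given as a description. All 7 members called before veraison had an r above 0.5 with it, itself included, the lowest being 0.52. The part of this shared swing in their thinning difference was not tested.

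Other members with a large spread behaved differently. VIT_11s0016g03840 was listed at 0 in 56 of 165 libraries and its smallest value above 0 was 6.98 RPKM. VIT_06s0004g05290 was listed at 0 in 60 libraries with a smallest value above 0 of 5.16 RPKM. Values between 0 and these were not seen in them, and a listed 0 may be a failed estimate, so that their second steps of -2.47 for VIT_11s0016g03840 and -4.21 for VIT_06s0004g05290 are uncertain.

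Among libraries of the same season, day and thinning level, members tended to be lower where sugar was higher, in a fit added after the data were examined. From day 28 to harvest the slope of log2(RPKM + 1) on sugar had a median of -0.06 per g per 100 ml, was negative in 134 of 150 members and was called in 41, all lower (limma, adjusted p below 0.05), beside 5.73% of all gene models called lower and 10.7% called higher. The count rested largely on 1 library, since it was 10 without replicate 2 of 50% thinning on day 28 of 2014, 13 without the 4 libraries that stand apart and 2 to 20 without 1 replicate number. On days 7 to 14 the median slope was -0.13, negative in 143 members, with 6 called lower, beside 0.401% of all gene models. That count was 3 with a pseudocount of 0.1, 11 with quantile normalization, 31 without the 4 libraries, 16 without replicate 2 of 50% thinning on day 28 of 2014 and 0 to 3 without 1 replicate number.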

How the data were processed

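The TruSeq libraries do not mark strand, per the labels' protocols, so reads from a stretch where a gene overlaps an antisense gene cannot be assigned by strand. The authors deposited RPKM for 29971 gene models in 165 libraries. TopHat2 2.0.6 and Cufflinks 2.0.2 are the tools listed, per the submitters' processing notes; build and settings are not given in the sources used here. All columns were used.

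The members and lists were chosen with earlier results of these data known. Only gene models at 1 RPKM or more in 3 or more libraries were kept and a pseudocount of 1 was added, so fold changes of low gene models are understated. limma 3.58.1 in R 4.3.3 fitted 1 mean to each of 55 groups with an intensity trend (110 residual and 3.24 prior degrees of freedom), was tested on simulated data, and p-values were adjusted by Benjamini-Hochberg over 20460 gene models. Contrasts gave days, thinning levels and seasons equal weight. Tables and plots were made with Python 3.11.15, pandas 2.3.3, numpy 2.4.6 and matplotlib 3.10.9. Named members were the steepest, the most abundant, those nearest the limits and the called members with the smallest adjusted p, at most 2 per direction and comparison. Members with the largest spread between replicates were named after their values were seen. Planned lists of genes by function, tissue markers and promoter motifs were not used, since none of the 29971 IDs matched the reference table. Alternatives were another pseudocount, no filter, quantile normalization, rescaling without the most abundant member, a replicate block, sugar as an added term, other limits of the choice, and left-out replicates, libraries, days and seasons.

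Replicates of a group correlated at a median r of 0.987 (0.915 to 0.992) across gene models, and no 2 libraries held identical values. RPKM gives no counts, so no counting error was computed.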

Additional observations from a re-analysis of the deposited data

Results flagged for a closer look

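The thinning difference of 75% minus 50% on days 7 to 14 was set against that before veraison. It was lower in 24 members (16%) and higher in 8, beside 1.86% and 1.94% of all gene models (limma, adjusted p below 0.05). Of the 498 gene models as steep but not flat before veraison, 24.7% were lower and 0.402% higher. Among the 24, VIT_07s0005g01210 changed by -0.68 ± 0.13 (log2, SE; limma, adjusted p = 0.000419). Among the 8, VIT_00s0253g00080 changed by 2.49 ± 0.50 (limma, adjusted p = 0.00121). All 8 had an r above 0.5 with VIT_19s0177g00090 within groups, and none of the 24 did. The part of that shared swing in the 8 was not tested. From day 28 to harvest against before veraison, 1 member was lower, VIT_07s0031g00540 at -0.62 ± 0.14 (limma, adjusted p = 0.00889), beside 0.684% of all gene models. From day 28 to harvest against days 7 to 14, 1 member was higher, VIT_12s0059g01240 at 0.91 ± 0.20 (limma, adjusted p = 0.0243), beside 0.0147% of all gene models.

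The fall of day 14 minus day 7 differed between 2014 and 2013. It was less steep in 2014 in 6 members called higher and went the other way in 1 called lower, beside 0.616% and 0.112% of all gene models. VIT_10s0003g01690 had 2.52, 7.33 and 10.5 RPKM (lowest, median and highest of 6) on day 14 of 2014, against 7.50, 10.1 and 11.9 on day 7. In 2013 it had 1.26, 1.78 and 2.72 RPKM on day 14, against 6.36, 10.9 and 12.9 on day 7. The days overlapped in 2014 only, and the difference between seasons was 1.44 ± 0.24 (limma, adjusted p = 8.05e-06). VIT_07s0031g03220 had 1.81, 2.30 and 3.39 RPKM on day 14 of 2014, against 2.99, 4.50 and 6.58 on day 7. In 2013 it had 4.78, 6.90 and 8.44 RPKM on day 14, against 1.83, 2.07 and 3.12 on day 7. This member was thus higher on day 14 in 2013, and the seasons differed by -1.88 ± 0.22 (limma, adjusted p = 1.55e-10).

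The change of day 35 minus day 28 differed between 2014 and 2013 in 1 member called lower and 1 called higher, beside 0.142% and 0.733% of all gene models. VIT_14s0066g01850 was lower by -1.10 ± 0.26 (limma, adjusted p = 0.00335), and the highest of its 6 values on day 28 of 2014, 18.8 RPKM against a median of 4.22, was in the library that stood apart. VIT_19s0015g02680 was higher by 1.20 ± 0.23 (limma, adjusted p = 0.000125), with 222, 231 and 252 RPKM on day 35 of 2014, against 118, 164 and 235 on day 28. In 2013 it had 84.3, 107 and 120 RPKM on day 35, against 147, 169 and 200 on day 28.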

How the results depend on the processing

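Of the named members, 178 of 200 values under alternatives stayed on their side of the threshold, 22 lost the call and none reversed. The counts of members called changed more.
With a pseudocount of 0.1, counts became 22 for day 35 minus day 28, 81 for day 49 minus day 28 of 2014, 45 and 4 for 2014 minus 2013 on days 7 and 14 and on days 28 and 35, and 4 for thinning from day 28 to harvest. Quantile normalization gave 2 for 2014 minus 2013 on days 28 and 35.
Leaving out replicates 1, 2 and 3 in turn gave 53 to 76 for day 14 minus day 7, 96 to 100 for day 32 minus day 11, 3 to 8 for day 35 minus day 28, 26 to 50 for day 49 minus day 28, and 25 to 32 between seasons early. Between seasons late it gave 1 to 1, but without replicate 2 this 1 was a different member, lower in 2014, while the member called otherwise was higher. For thinning it gave 4 to 9 on days 7 to 14, 0 to 1 from day 28 to harvest, 0 to 8 before veraison and 1 to 7 over all days. The 0 counts had 16 members (day 28 to harvest) and 9 (before veraison) at an unadjusted p below 0.05 in limma.
Without 4 libraries that stand apart (50% thinning replicates 1 and 2 of day -18 of 2012, 75% thinning replicate 2 of day 0 of 2012 and 50% thinning replicate 2 of day 28 of 2014) counts were 26 for day 49 minus day 28, 0 for 2014 minus 2013 on days 28 and 35, and 42, 14 and 35 for thinning on days 7 to 14, before veraison and over all days. None of the 4 was sampled on days 7 to 14, and they enter that count through the spread shared by all groups. Without the last of them alone the first 2 counts were 26 and 0.
With sugar as an added term, chosen after seeing the data, counts were 29, 59, 2 and 18 for the 4 changes in time, 16 and 0 between seasons, and 1, 1 and 2 for thinning on days 7 to 14, from day 28 to harvest and over all days.
Leaving out single days, also chosen after seeing the data, gave 2 (day 11 of 2012), 6 (day 7 of 2013), 52 (day 7 of 2014) and 0 (day 14 of 2014) for thinning on days 7 to 14. From day 28 to harvest it gave 1 without days 28 or 35 of 2013 or 2014 and 5 without day 49. Before veraison it gave 12 without day -18 of 2012 and 0 without day -14 of 2013. The cause of these changes was not tested.
Slopes on sugar within groups, added after the data were examined, gave 41 members from day 28 to harvest and 6 on days 7 to 14. These became 10 and 16 without 50% thinning replicate 2 of day 28 of 2014, 13 and 31 without the 4 libraries, and 2 to 20 and 0 to 3 without 1 replicate number. On days 7 to 14 a pseudocount of 0.1 gave 3 and quantile normalization 11.
The limit on the first step decided which gene models were chosen: 61 members were shared at a limit of 0.25 and 64 at a limit of 1, and 102 to 150 under the other settings.
A replicate block left 65, 98, 5 and 40 calls for the changes in time, 29 and 1 between seasons and 18, 2, 7 and 18 for thinning on days 7 to 14, late, before veraison and over all days. The numbers do not pair the samples: deviations of same-numbered samples correlated at a median r of -0.01 over 78 pairs of groups (-0.39 to 0.61).
Without read counts, members near 1 RPKM or below cannot be given a counting error.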
